A study of Rattus norvegicus with 30 samples.

Results

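The transcripts described here are 10 genes that carry lipid into cells, out of cells or between them: the apolipoproteins Apoe and Apod, the cholesterol exporters Abca1 and Abcg1, the scavenger receptors Olr1, Msr1 and Cd36, the lipase Lpl, and the fatty acid binding proteins Fabp4 and Fabp5. A probe was included when the array's own annotation gave it 1 of these names, and for Olr1 only when it was described as the oxidized LDL receptor. This took 11 of the 41012 non-control probes of the array, 1 for each gene and a second for Lpl. All 10 genes passed the filter on dim probes in both tissues.

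RNA came from adult male Sprague-Dawley rats whose left sciatic nerve had a segment cut out at mid-thigh, proximal to where it divides into its tibial and common peroneal branches. Nerve tissue (SN) and lumbar dorsal root ganglia (DRG), which house the cell bodies of its sensory axons, were taken at 1, 4, 7 and 14 d, and the 0 d arrays of each tissue were the controls. Each of these 10 groups had 3 arrays. The labels do not say which rats or how many an array holds, so the p-values measure the spread between arrays, part of which may be technical. Nerve and ganglia of a day may also come from the same rats. The cut nerve and the ganglia are whole tissues, in which fewer cells of a type and less RNA per cell cannot be told apart.

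Between 26914 and 35541 probes per array were well above background, and arrays of a group correlated at r = 0.985 to 0.997 over the probes tested in both tissues. Sensory neuron markers had a mean signal of 6.32 to 6.37 in the DRG arrays of 0 d and of −2.73 to −2.32 in those of SN (log2, relative to the 75th percentile of each array, called the normalized signal below), and Schwann cell markers had 5.40 to 5.65 in SN at 0 d. SN 0 d array 1 stood apart in its skeletal muscle markers, at 7.63 against 3.59 and 4.10 on the other SN arrays of 0 d. DRG 0 d arrays 2 and 3 were hybridized on a slide of their own. The 0 d arrays were also scanned apart from those of all later days, so that within a tissue slide or scan and time after injury cannot be told apart.

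Cholesterol that cells take up with lipoproteins or with debris is stored as esters or handed out again. ABCA1 passes it to lipid-poor apolipoproteins such as apolipoprotein E, and ABCG1 to particles that already hold lipid. The genes of both exporters are targets of the liver X receptors, which sense oxidized cholesterol. After a peripheral nerve is cut, macrophages and Schwann cells break down the myelin of severed axons, a large source of cholesterol and fatty acids, mostly beyond the cut. The nerve tissue measured here lay before it. Scavenger receptors bind modified lipoproteins and other debris, lipoprotein lipase frees fatty acids from triglyceride at the vessel wall and in adipose tissue, CD36 also takes up long-chain fatty acids, and the fatty acid binding proteins hold them inside the cell.

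The array reads a transcript through a 60-base oligonucleotide. The following are shown because they are what was measured for 1 exporter, 1 scavenger receptor, 1 binding protein and 1 apolipoprotein. The Cd36 probe covers 1248 and the Fabp4 probe 2415 bases of genome, so both cross an exon junction.
Abca1 probe (rn4, chr5:70493613-70493672): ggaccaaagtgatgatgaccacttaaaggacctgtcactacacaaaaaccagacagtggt
Cd36 probe (rn4, chr4:13518295-13519542): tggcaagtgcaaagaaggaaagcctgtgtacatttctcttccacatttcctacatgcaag
Fabp4 probe (rn4, chr2:93536175-93538589): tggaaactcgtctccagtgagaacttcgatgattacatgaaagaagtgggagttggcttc
Apoe probe (rn4, chr1:79003795-79003854): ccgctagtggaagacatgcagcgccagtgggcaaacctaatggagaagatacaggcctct

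Abca1 and Olr1 rose in SN and Cd36 fell, and their promoters are shown as the 250 bases before the annotated start, 5′ to 3′ along the gene, from RefSeq (GRCr8). The promoter table held 5 of the 10 genes. Capitals in the Abca1 promoter mark, at −70 to −55, a match on the reverse strand to the direct repeat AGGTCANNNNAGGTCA, the form of a liver X receptor element, and, at −32 to −27, a TATA box (TATAAA). The direct repeat was searched with up to 3 mismatches, and this one matched at 9 of its 12 fixed positions. In all, 18.6% of 33469 promoters held such a repeat and 12.9% a TATA box, on either strand. Capitals in the Olr1 promoter mark the AP-1 motif TGANTCA at −30 to −24, which 6.34% of promoters held. These are matches of letters, which the data do not test as binding sites.
Abca1 promoter (GRCr8, minus strand, chr5:72596474-72596723): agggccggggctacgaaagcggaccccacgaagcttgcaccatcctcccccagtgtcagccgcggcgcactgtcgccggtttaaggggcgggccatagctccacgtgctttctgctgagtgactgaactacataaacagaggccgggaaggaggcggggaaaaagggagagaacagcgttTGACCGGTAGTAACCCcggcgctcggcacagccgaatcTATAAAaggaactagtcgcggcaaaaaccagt
Olr1 promoter (GRCr8, minus strand, chr4:164634548-164634797): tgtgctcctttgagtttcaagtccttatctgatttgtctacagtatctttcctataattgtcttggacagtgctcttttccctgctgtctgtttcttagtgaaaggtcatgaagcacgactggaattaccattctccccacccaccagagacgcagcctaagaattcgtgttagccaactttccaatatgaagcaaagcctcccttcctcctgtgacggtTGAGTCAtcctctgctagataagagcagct
Cd36 promoter (GRCr8, plus strand, chr4:18246332-18246581): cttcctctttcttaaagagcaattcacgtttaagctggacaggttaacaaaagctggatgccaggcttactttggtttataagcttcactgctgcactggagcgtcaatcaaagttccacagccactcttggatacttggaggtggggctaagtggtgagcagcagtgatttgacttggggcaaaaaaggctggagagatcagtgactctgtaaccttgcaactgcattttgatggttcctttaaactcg

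In SN the exporter Abca1 and the scavenger receptors Olr1 and Msr1 rose by 1 d and were still called higher at 14 d. Abca1 was highest after 4 d and Olr1 and Msr1 after 1 d, and all 3 were lower at 14 d than at 7 d. Lpl, Fabp4 and Cd36 fell from 4 d or 7 d on. In DRG only Abca1 and Msr1 passed the test. A change was called where the Benjamini-Hochberg adjusted p of limma was under 0.05 and the fold change over 2. In SN 3 of 10 genes were higher and 0 lower after 1 d, where 18.6% of all tested probes were called higher and 3.43% lower. At 4 d 4 genes were higher (15.9% of probes) and 2 lower (6.78%), after 7 d 3 were higher (18.1%) and 3 lower (6.81%), and after 14 d 3 were higher (14.3%) and 3 lower (5.46%). From 4 d on the shares of the 10 genes called, in either direction, were thus above those of all probes, but each rested on 2 to 4 genes. The 10 genes were also chosen with earlier results of these data known, so these shares do not test them as a set. With quantile normalization the median change of all probes moved by −0.193 to −0.137 in SN against 0 d and by −0.175 to −0.108 in DRG, and the share of higher probes among those called went from 70.1 to 84.5% to 53.7 to 62.9% in SN and from 92.3 to 97.8% to 73 to 86.1% in DRG. Beside the 0 genes called lower after 1 d, 2 were lower at an unadjusted p under 0.05. That looser threshold has no fold limit. The share of all probes that pass it was not counted, here or below, so the percentages given do not apply to it. All comparisons of a tissue with 0 d share the same 3 control arrays.

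**Figure D1:**
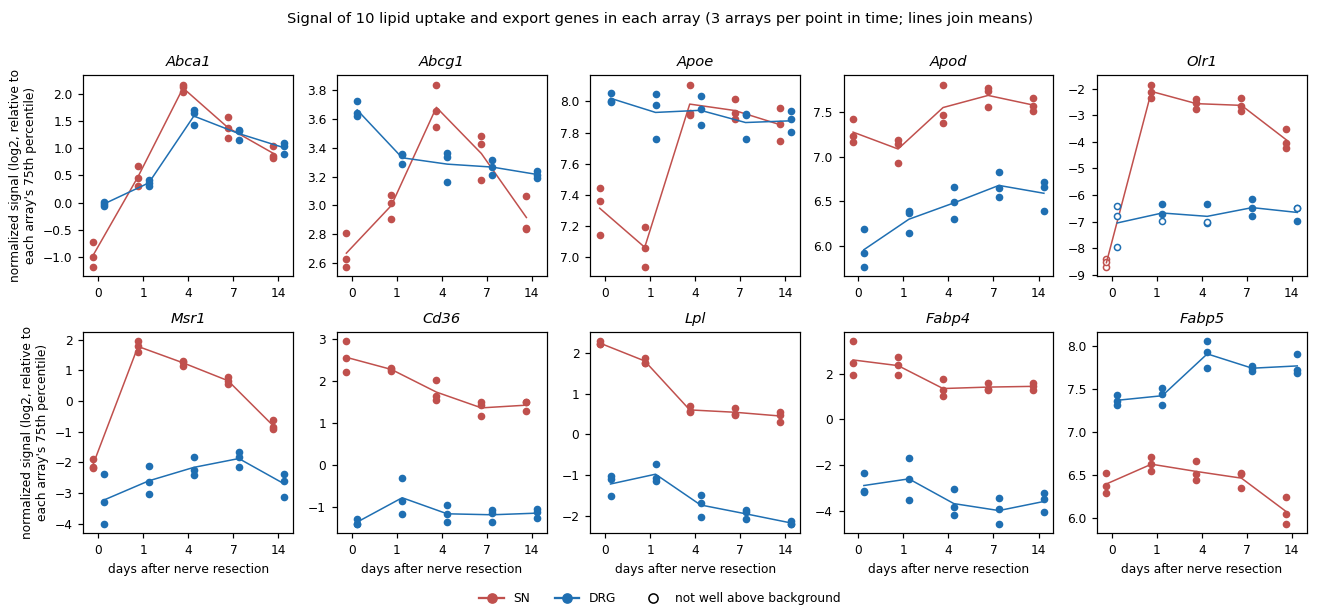
Normalized signal (log2, relative to the 75th percentile of each array) of the 10 genes against days after nerve resection, with 1 point per array, red for SN and blue for DRG, lines through the means of 3 arrays, and open points where the probe was not well above background. Abca1 goes from −1.18 to −0.73 at 0 d to 2.02 to 2.16 at 4 d in SN, Olr1 is not well above background at 0 d in either tissue, and Lpl, Cd36 and Fabp4 lie higher in SN than in DRG on every day. Each panel has its own axis.

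Abca1 reached its highest level after 4 d in both tissues. In SN its normalized signal was −0.995, −0.73 and −1.18 at 0 d, 0.67, 0.30 and 0.45 after 1 d, and 2.02, 2.12 and 2.16 after 4 d. It was then at 1.57, 1.37 and 1.18 after 7 d and 0.86, 1.03 and 0.82 after 14 d. The arrays of every later day lay above all those of 0 d. The log2 changes from 0 d were 1.44, 3.07, 2.34 and 1.88 at 1, 4, 7 and 14 d (SE 0.135, adjusted p = 4.2e-06, 1.18e-08, 8.31e-08 and 6.25e-07), an 8.4-fold increase after 4 d. The step from 1 d to 4 d was itself called (log2 change 1.63, adjusted p = 8.37e-06), whereas the later steps of −0.73 and −0.47 stayed under 2-fold.

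In DRG Abca1 began higher and rose less. Its signal was 0.01, −0.03 and −0.06 at 0 d, 0.35, 0.31 and 0.42 after 1 d, 1.64, 1.41 and 1.71 after 4 d, 1.33, 1.31 and 1.15 after 7 d, and 0.89, 1.03 and 1.1 after 14 d. Again no array of a later day overlapped with 0 d. The changes were 0.39, 1.61, 1.29 and 1.03 (SE 0.092, adjusted p = 0.0118, 2.23e-07, 1.53e-06 and 1.02e-05), of which those from 4 d on were called. The call after 14 d rested on a change close to 2-fold and was lost with normexp and quantile normalization (0.985) or without DRG 14 d array 3 (0.987).

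Abcg1, the other exporter, was called once, in SN after 4 d. Its signal was 2.57, 2.81 and 2.63 in SN at 0 d, 3.65, 3.54 and 3.84 after 4 d and 3.07, 2.84 and 2.84 after 14 d. The change after 4 d was 1.01 ± 0.11 (SE, adjusted p = 9.07e-06), just past 2-fold. It was under 2-fold without SN 0 d array 1 (0.96), without SN 0 d array 3 (0.99), without SN 4 d array 3 (0.93) or with normexp and quantile normalization (0.994). At 7 d the change was 0.69 (adjusted p = 0.000187), not 2-fold. In DRG the arrays of all later days lay below those of 0 d, by 0.33 to 0.45 on the log2 scale (adjusted p = 0.00789, 0.00313, 0.00236 and 0.000658 at 1, 4, 7 and 14 d), none of it 2-fold. Over these days the values of Abca1 and Abcg1 therefore lay on opposite sides of 0 d in the ganglia and on the same side in the nerve.

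As the arrays were scaled here, the apolipoproteins changed less than 2-fold. Apoe, whose protein binds the LDL receptor family and accepts exported cholesterol, had signals of 7.14, 7.36 and 7.44 in SN at 0 d and 7.19, 7.06 and 6.93 after 1 d. From 4 d on all SN arrays lay above those of 0 d, at 7.93, 7.91 and 8.11 after 4 d, 7.93, 8.01 and 7.88 after 7 d and 7.96, 7.75 and 7.85 after 14 d. The changes of 0.67, 0.63 and 0.54 (SE 0.101) had adjusted p = 0.00011, 0.000182 and 0.000717 but stayed under 2-fold. This depended on the scaling of the arrays: with quantile normalization the Apoe changes after 4 d and 7 d were 1.08 and 1.03 and were called. With normexp before it they were 1.215 and 1.063, also called. With the authors' deposited values the changes at 4, 7 and 14 d were 1.129, 1.08 and 1.017, and all were called. The step from 1 d to 4 d, 0.92 as scaled here, was 1.005, 1.143 and 1.057 under these settings in turn and was called. No spot of these genes was saturated. In DRG Apoe was at 7.76 to 8.06 on all 15 arrays and its changes were between −0.16 and −0.08 (adjusted p from 0.222 to 0.529).

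Apod, a lipocalin that carries small lipids and is known to be made in injured nerves, had signals of 7.17, 7.24 and 7.43 in SN at 0 d and 7.38 to 7.81 from 4 d on. Its largest change in SN was 0.41 after 7 d (adjusted p = 0.0102), not 2-fold. In DRG it was at 5.76, 5.92 and 6.18 at 0 d and at 6.30 to 6.83 from 4 d on, with no overlap. The DRG changes of 0.53, 0.72 and 0.64 at 4, 7 and 14 d (SE 0.138, adjusted p = 0.0142, 0.00295 and 0.00373) were also under 2-fold. The Apod probe is placed on an unassembled part of chromosome 11 in rn4.

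Olr1, the lectin-like receptor for oxidized LDL, was well above background in SN only after injury. At 0 d its probe was not well above background on any SN array, at −8.71, −8.41 and −8.52. It was well above background on all 12 later arrays, at −1.84, −2.36 and −2.11 after 1 d, −2.54, −2.38 and −2.77 after 4 d, −2.86, −2.37 and −2.66 after 7 d and −4.23, −4.04 and −3.51 after 14 d. Because 0 d has only a bound, the increase is given as a minimum on the scale of the normalized signal. It was at least 19.7-, 14.3-, 13.7- and 5.56-fold at 1, 4, 7 and 14 d. The adjusted p of limma, 1.16e-09, 1.97e-09, 2.72e-09 and 2.4e-08, belong to the fitted changes from the dim 0 d signal and do not test these bounds. In SN the probe passed the filter on dim probes only through the later days. Each bound sets the mean of the later day against, per 0 d array, the higher of the probe's own signal and the lowest signal of any probe well above background. The bounds do not hold under every other setting. Over the 27 settings that tested Olr1, its lowest log2 changes were 2.476, 2.136, 2.078 and 1.244 at 1, 4, 7 and 14 d. These are smaller increases than the bounds, but the change was called under all 27 settings on each day. The settings are not independent, since some left both the Olr1 probe and the arrays compared unchanged. The filter that required both groups above background left Olr1 out. The fall from 7 d to 14 d was called (log2 change −1.30 ± 0.20 SE, adjusted p = 0.00289) and was under 2-fold with normexp and quantile normalization (−0.83).

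In DRG the Olr1 probe stayed dim. It was well above background on 0 of 3 arrays at 0 d, 2 after 1 d, 1 after 4 d, 3 after 7 d and 2 after 14 d, with signals between −7.94 and −6.14 over all 15 arrays. No DRG change of Olr1 was called (adjusted p from 0.247 to 0.604).

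Msr1, the macrophage class A scavenger receptor, followed a similar course in SN from a level that was measured at 0 d. Its signal was −2.16, −2.19 and −1.89 at 0 d, 1.79, 1.61 and 1.94 after 1 d, 1.14, 1.29 and 1.31 after 4 d, 0.79, 0.55 and 0.65 after 7 d and −0.92, −0.86 and −0.62 after 14 d. The 1 d arrays were the highest, and each later day lay below the day before it without overlap. The changes from 0 d were 3.86, 3.32, 2.74 and 1.28 (SE 0.118, adjusted p = 1.16e-09, 2.91e-09, 1.63e-08 and 3.64e-06), that is 14.5-, 10-, 6.68- and 2.42-fold. The fall from 7 d to 14 d was called (−1.47, adjusted p = 6.75e-05). With normexp and quantile normalization the 14 d change from 0 d was 0.976, under 2-fold. The Msr1 probe is annotated to an Ensembl transcript rather than to a RefSeq mRNA.

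In DRG the 0 d arrays of Msr1 spread widely, at −4.01, −3.29 and −2.39. The signal was −1.83, −2.41 and −2.25 after 4 d, where array 2 lay below the highest 0 d array, and −2.14, −1.83 and −1.67 after 7 d, above all 0 d arrays. The changes of 1.07 and 1.36 (SE 0.361, adjusted p = 0.0411 and 0.0182) were called. Neither held throughout. With quantile normalization, alone or after normexp, the 4 d change was 0.89 and 0.64, and after normexp the 7 d change was 0.84. Without DRG 0 d array 1 they were 0.68 and 0.96 (adjusted p = 0.147 and 0.0584), without DRG 0 d array 2 they had adjusted p = 0.095 and 0.0513, and without array 2 or 3 of their own day 0.0514 to 0.0944. Without DRG 4 d array 1 the 4 d change was 0.90, and leaving out DRG 1 d array 2, DRG 7 d array 2 or 3 or DRG 14 d array 2 took its adjusted p to 0.0515 to 0.0538. The uncalled 1 d change of 0.63 passed without DRG 0 d array 3 (1.05, adjusted p = 0.0426). With DRG counted over all 10 genes, 0 were higher after 1 d (7.44% of all probes), 2 after 4 d (6.04%), 2 after 7 d (6.58%) and 1 after 14 d (13%). None were lower in limma, where 0.169%, 0.506%, 0.326% and 0.46% of all probes were. At an unadjusted p under 0.05 without a fold limit 1, 2, 3 and 2 genes were lower. The share of all probes at that threshold was not counted.

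Cd36, the receptor that also brings long-chain fatty acids into endothelium, fat and muscle, fell in SN. Its signal was 2.95, 2.21 and 2.55 at 0 d, 2.29, 2.24 and 2.32 after 1 d, 1.55, 1.64 and 2.03 after 4 d, 1.5, 1.17 and 1.42 after 7 d and 1.51, 1.28 and 1.497 after 14 d. From 4 d on every array was below those of 0 d. The changes after 7 d and 14 d were −1.21 and −1.14 (SE 0.173, adjusted p = 7.59e-05 and 0.000155), and the change of −0.83 after 4 d was under 2-fold. Without SN 0 d array 1 the 14 d change was −0.95, and without SN 0 d array 2 the 4 d change was −1.01 and was called. In DRG Cd36 was between −1.41 and −0.32 on all arrays, and its largest change was 0.58 after 1 d (adjusted p = 0.0403), not 2-fold.

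Lpl, lipoprotein lipase, fell between 1 d and 4 d in SN and did not return. The brighter of its probes read 2.29, 2.23 and 2.23 at 0 d, 1.89, 1.77 and 1.77 after 1 d, 0.58, 0.54 and 0.69 after 4 d, 0.66, 0.47 and 0.51 after 7 d and 0.56, 0.49 and 0.31 after 14 d. The changes were −0.44, −1.65, −1.71 and −1.80 (SE 0.082, adjusted p = 0.000583, 3.15e-08, 2.78e-08 and 3.67e-08), a 3.13- to 3.47-fold fall from 4 d on. The step from 1 d to 4 d was called (−1.21, adjusted p = 2.55e-06). The other probe, which lies 5′ of it in the same mRNA, gave −0.44, −1.86, −2.185 and −2.065. The brighter probe of Lpl is printed 10 times on each array, as is that of Cd36, and the median SD between its spots on a SN array was 0.049 on the log2 scale.

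In DRG Lpl was at −1.10, −1.04 and −1.53 at 0 d, at −1.68, −2.03 and −1.498 after 4 d, at −1.87, −2.08 and −1.92 after 7 d and at −2.13, −2.20 and −2.21 after 14 d. The arrays of 7 d and 14 d lay below those of 0 d. The changes of −0.73 and −0.96 (SE 0.16, adjusted p = 0.00652 and 0.000785) were not 2-fold. At 14 d the change passed 2-fold with quantile normalization (−1.098) or without DRG 0 d array 3 (−1.11).

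Fabp4, the fatty acid binding protein of adipocytes, macrophages and capillary endothelium, was lower in SN from 4 d on, but its 0 d arrays were far apart. They read 3.43, 2.47 and 1.95, against 2.40, 1.96 and 2.74 after 1 d, 1.02, 1.29 and 1.77 after 4 d, 1.60, 1.31 and 1.36 after 7 d and 1.49, 1.28 and 1.60 after 14 d. The changes of −1.26, −1.19 and −1.16 (SE 0.322, adjusted p = 0.00485, 0.00649 and 0.00873) were called with limma. With the methods' t-test none of the 3 was called (unadjusted p = 0.061, 0.0542 and 0.0588). Without SN 0 d array 1 they were −0.85, −0.79 and −0.76, under 2-fold, and with normexp and quantile normalization the 14 d change was −0.95. That array was the one that stood apart for skeletal muscle markers and was also the highest of the 3 for adipocyte markers, at 0.69 against 0.15 and −0.11 for the mean of 4 genes, and their part in the result was not tested. In DRG Fabp4 was between −4.59 and −1.67, and no change was called (adjusted p from 0.104 to 0.706).

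Fabp5, the epidermal fatty acid binding protein, which neurons also make, was not called on any day in either tissue. In SN it read 6.29, 6.52 and 6.37 at 0 d and 6.05, 5.93 and 6.24 after 14 d (change −0.32, adjusted p = 0.0154). In DRG it read 7.35, 7.31 and 7.43 at 0 d and 7.68 to 8.05 from 4 d on, without overlap. Those changes were 0.54, 0.37 and 0.40 (SE 0.094, adjusted p = 0.00174, 0.014 and 0.00582), under 2-fold. Its probe is placed on an unassigned sequence in rn4.

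**Figure D2:**
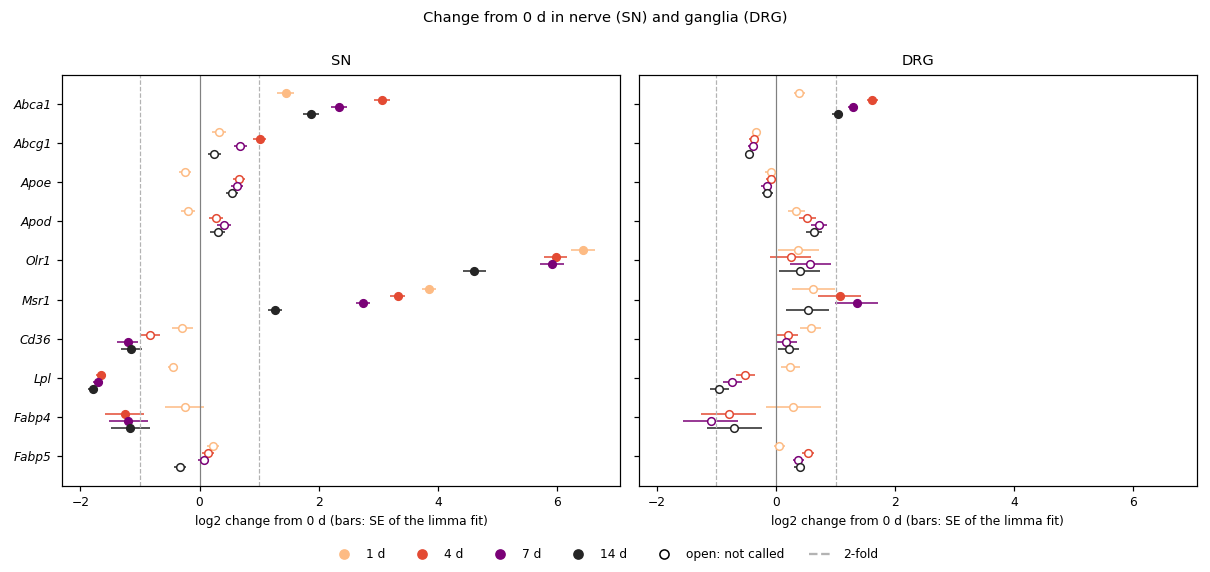
Log2 change from 0 d (x axis) of each gene (y axis) at 1, 4, 7 and 14 d in SN (left) and DRG (right), with bars for the SE of the limma fit, filled points for called changes and dashed lines at 2-fold. The changes of Olr1 in SN, 4.62 to 6.44, are against arrays on which the probe was not well above background. Only Abca1 and Msr1 have filled points in DRG.

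Between neighbouring days after injury, which do not share the 0 d arrays, the calls in SN lay at the first and the last step. From 1 d to 4 d 3 of 10 genes were called (8.53% of all probes in either direction): Abca1 rose, and Lpl and Fabp4 fell. The Fabp4 fall of −1.01 (adjusted p = 0.028) was lost with slide as a random block (adjusted p = 0.115) and without SN 1 d array 1 or 3 or SN 4 d array 1 or 2 (−0.82 to −0.99). From 4 d to 7 d 0 were called with limma (2.6% of probes), and from 7 d to 14 d 2, Olr1 and Msr1 (1.65%). At an unadjusted p under 0.05 without a fold limit, for which no share of probes was counted, 4 were lower from 4 d to 7 d. In DRG 1 gene, Abca1, was called from 1 d to 4 d (log2 change 1.23, adjusted p = 1.02e-05), where 4.27% of probes were. At the later steps 0 were called, where 0.177% and 0.0972% of probes were. At an unadjusted p under 0.05 without a fold limit, again with no share counted, 1 and 2 were lower. The DRG change of Fabp4 from 1 d to 4 d, −1.09 with adjusted p = 0.111, passed without DRG 1 d array 1 (−1.54, adjusted p = 0.0478).

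At 0 d the tissues differed most in the genes of fatty acid uptake. Fabp4 was higher in SN at 0 d by 5.52, Cd36 by 3.94 and Lpl by 3.47 on the log2 scale (SE 0.414, 0.179 and 0.128, adjusted p = 3.56e-11, 4.24e-15 and 7.89e-17). Apod and Msr1 were higher in SN by 1.32 and 1.15 (adjusted p = 3.72e-09 and 0.000787). For Apoe, Fabp5, Abca1 and Abcg1 the differences were −0.71, −0.97, −0.94 and −0.99 (adjusted p from 1e-09 to 3.46e-07), under 2-fold. Olr1 also passed the thresholds, but it was not well above background in either tissue and has no fold. With it, 6 of 10 genes were called, where 35.4% of all probes were. With quantile normalization Apod missed 2-fold (0.74), and Apoe, Abcg1 and Fabp5 passed it (−1.12, −1.11 and −1.33). The difference for Msr1 was 0.76 without DRG 0 d array 1 and 0.814 with normexp and quantile normalization, and without SN 0 d array 2 Abca1, Abcg1 and Fabp5 passed 2-fold (−1.06, −1.06 and −1.03), Abcg1 also without DRG 0 d array 1 or 2.

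DRG 0 d array 1 shared a slide with the 3 SN arrays of 0 d. On that slide alone SN was above DRG by 5.77 for Fabp4, 3.85 for Cd36, 3.35 for Lpl, 1.52 for Apod and 1.94 for Msr1, and the difference for Olr1 was −0.607, on 3 arrays against 1.

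The interaction of tissue and day tested whether the change from 0 d differed between nerve and ganglia. Of the 10 genes 3 were called after 1 d (11.4% of all probes), 6 after 4 d (18.2%), 5 after 7 d (15.3%) and 2 after 14 d (12.5%). Abca1 rose more in SN by 1.06, 1.46 and 1.05 at 1, 4 and 7 d (SE 0.162, adjusted p = 3.28e-05, 2.48e-07 and 2.01e-05). From a lower start at 0 d its SN arrays lay above those of DRG after 4 d, and the tissues overlapped after 7 d and 14 d. Abcg1 differed by 1.38 and 1.08 after 4 d and 7 d (adjusted p = 1.67e-08 and 5.59e-07). Msr1 rose more in SN by 3.23, 2.26 and 1.39 at 1, 4 and 7 d (SE 0.394, adjusted p = 2.06e-06, 7.38e-05 and 0.00766).

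Olr1 was called on all 4 days and under every setting that tested it, some of which could not move its value. The filter that required both groups above background left it out. With no level above background at 0 d in either tissue, the size of its difference is not measured. The fitted values, 4.22 to 6.07, were 3.75 to 4.83 with slide as a block and 1.33 to 2.55 with normexp and quantile normalization. Cd36 fell relative to DRG by 1.03, 1.38 and 1.36 at 4, 7 and 14 d (SE 0.254, adjusted p = 0.00215, 0.000153 and 0.000239). Lpl differed by −1.13 after 4 d (adjusted p = 2.79e-05), and its differences after 7 d and 14 d were −0.971 and −0.839 (adjusted p = 0.000181 and 0.000992), under 2-fold. With the other probe of Lpl the latter were −1.26 and −1.25 (adjusted p = 0.000374 and 0.000514) and both were called. Apoe differed by 0.75, 0.79 and 0.68 from 4 d on (adjusted p = 7.22e-05, 4.97e-05 and 0.000294), under 2-fold. With the authors' deposited values these differences were 1.15, 1.103 and 1.037 and were called. With quantile normalization the Apoe differences of 4 d and 7 d passed 2-fold (1.105 and 1.055) and the Lpl difference did not (−0.991), and with normexp before it the Abca1 difference of 7 d was 0.968. With scan as a fixed block that difference was 0.985 (adjusted p = 0.00077) and the Lpl difference of 7 d −1.06, and with slide as a random block the Cd36 difference of 4 d was −0.986 (adjusted p = 0.00552). Apod, Fabp4 and Fabp5 were not called.

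Since slides held arrays of both tissues, the interaction could be fitted with slide as a fixed block, an alternative chosen after the data were seen. The Msr1 difference after 7 d was then 0.87 (adjusted p = 0.16), the Cd36 difference after 4 d −0.66 (adjusted p = 0.135) and the Lpl difference after 4 d −0.92 (adjusted p = 0.0138, under 2-fold). In that fit the other 13 of the 16 calls held, and 5 of the 6 genes kept a call. Without slide as a block, 5 calls near the threshold were each lost without single arrays. The Abca1 difference was 0.95 after 1 d and 0.945 after 7 d without SN 0 d array 3, 0.96 after 1 d without SN 1 d array 1, and 0.952 and 0.994 after 7 d without SN 7 d array 1 and DRG 7 d array 3. The Cd36 difference after 4 d was −0.839 to −0.979 without SN 0 d array 1, SN 4 d array 1 or 2 or DRG 4 d array 1, and −0.835 to −0.968 with every other normalization tried. The Lpl difference after 4 d was −0.978 and the Msr1 difference after 7 d 0.964 without DRG 0 d array 3. Gained were Cd36 after 1 d without SN 0 d array 2 or DRG 1 d array 1 (−1.05 and −1.06), Msr1 after 14 d without DRG 0 d array 1 (1.13) and Lpl after 7 d without DRG 0 d array 1 or 2, DRG 7 d array 2 or SN 7 d array 1 (−1.03 to −1.06).

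Macrophage markers rose over the same days. The mean normalized signal of 10 markers was 0.96 to 1.23 in SN at 0 d, 2.24 to 2.68 after 1 d, 2.96 to 3.32 after 4 d, 2.61 to 2.87 after 7 d and 1.91 to 2.51 after 14 d, and 7, 10, 8 and 7 of the 10 were called higher. In DRG it was −0.88 to −0.08 at 0 d and 0.30 to 0.72 from 4 d on, with 0, 4, 6 and 5 called higher. All 10 markers were well above background on every array. In SN the mean of the list was highest after 4 d, but its genes differed, with Itgam, Cd14 and Cd163 at their highest mean signal after 1 d (1.18, 3.93 and 0.10, against 0.84, 3.62 and −0.11 after 4 d) and Fcgr3a after 7 d (2.69, against 1.79 after 4 d). Their part in the rise of Abca1, Olr1 and Msr1 was not tested.

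For the genes that fell, the markers of the other cell types that use them did not move as 1 group. Of the 4 adipocyte markers on the array, Lep was not well above background on any array. Adipoq fell in SN from 3.79 to 2.33 and Cidec from 0.14 to −1.09 between 0 d and 4 d, while Cfd was at 5.48 and 5.61. The mean of the adipocyte list was −0.11 to 0.69 at 0 d and −0.69 to −0.01 from 4 d on, and −4.04 to −2.74 on all DRG arrays. The mean of 6 endothelial markers lay between −0.36 and 0.13 on all SN arrays, with 1 of the 6 lower after 1 d, 1 higher after 4 d, 1 higher after 7 d and 0 called after 14 d. The 6 skeletal muscle markers were all called lower in SN after 4 d and 7 d. After 14 d none was called, with a median change of −0.857. The mean of that list spread from 3.59 to 7.63 over the SN arrays of 0 d. The part of these cells in the falls was not tested.

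**Figure D3:**
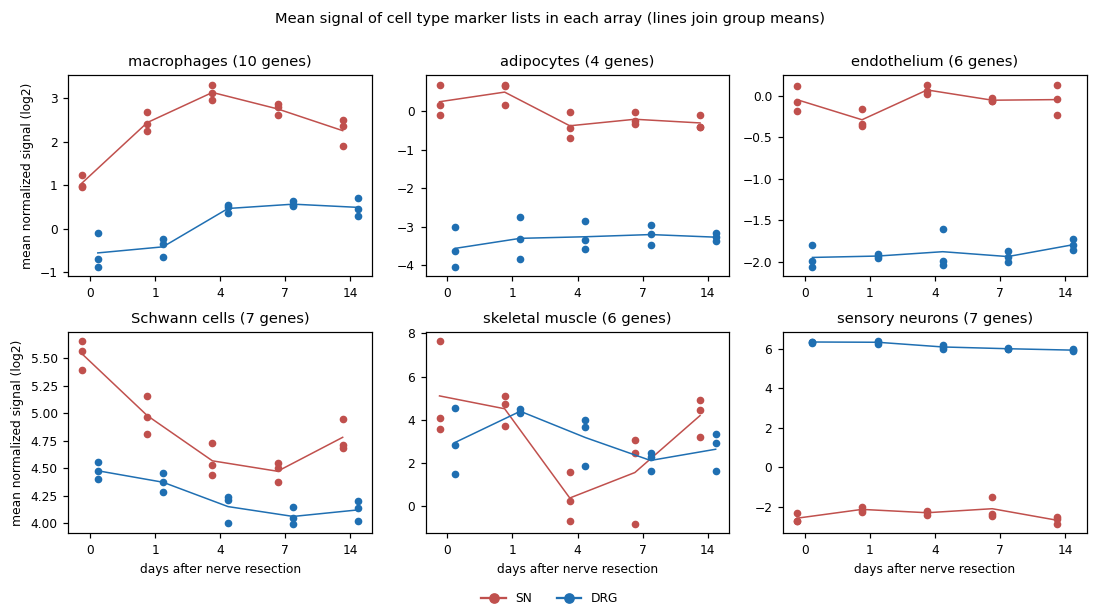
Mean normalized signal (log2) of marker lists for 6 cell types against days after nerve resection, with 1 point per array, red for SN and blue for DRG, and lines through the means of 3 arrays. Macrophage markers rise from 0.96 to 1.23 at 0 d to 2.96 to 3.32 at 4 d in SN, and 1 SN array of 0 d stands at 7.63 for skeletal muscle. Each panel has its own axis.

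Of the other genes of lipoproteins and cholesterol export, 27 of 29 listed were on the array and tested. In SN 6, 9, 9 and 7 were called higher at 1, 4, 7 and 14 d and 3, 2, 3 and 2 lower, where 18.6, 15.9, 18.1 and 14.3% of all probes were higher and 3.43, 6.78, 6.81 and 5.46% lower. The higher counts lay above the share of all probes on each day, and each lower count was 2 or 3 genes. This list and the lists below were chosen with earlier results of these data known, so their counts do not test them as sets. The medians were −0.02, 0.27, 0.31 and 0.37 where those of all probes were 0.11, 0.15, 0.15 and 0.16. Apoc1 and Apoc4, small apolipoproteins encoded beside Apoe, rose on all 4 days. The Apoc1 changes were 2.69, 5.37, 4.61 and 3.29, and the Apoc4 changes were 1.53, 4.04, 4.62 and 3.76. Apoa4 was not well above background on any SN array of 0 d, and rose at least 5.61-, 1.28-, 1.47- and 1.55-fold. Apoc3, an inhibitor of lipoprotein lipase, fell by 1.03 to 3.04 on the log2 scale, and Abca2 and Lcat, which esterifies the cholesterol of lipoproteins, were called lower on 3 and 2 days. In DRG 1, 4, 3 and 7 of the 27 were higher, where 7.44, 6.04, 6.58 and 13% of all probes were, and 0 lower. Apoh, Apoc2 and Apoa4 were among the higher genes on at least 2 days, Apoa4 from 0 d arrays on which it was not well above background. The medians were 0.05, 0.16, 0.29 and 0.22 where those of all probes were 0.09, 0.14, 0.08 and 0.13.

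Of the lipoprotein and scavenger receptors outside the 10 genes, 18 of 20 were on the array and tested in SN. There 3, 4, 5 and 4 were higher at 1, 4, 7 and 14 d and 0, 2, 1 and 1 lower, against 18.6, 15.9, 18.1 and 14.3% of all probes higher and 3.43, 6.78, 6.81 and 5.46% lower. With 18 genes, these counts are within 2 genes of those shares. Cd68, which is also in the macrophage list, rose by 1.41, 2.95, 2.52 and 1.57, and Lrp8, an apolipoprotein E and reelin receptor, by 1.12 to 1.96. Cd163, a haemoglobin scavenger receptor also in the macrophage list, was called higher on 2 days. Lrp2, or megalin, fell, with changes of −2.24, −2.85 and −3.43 at 4, 7 and 14 d. In DRG Sorl1 was called lower on 2 days, and 1, 0, 1 and 1 of 17 genes were higher, near or below the 7.44, 6.04, 6.58 and 13% of all probes.

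Of the fatty acid and lipid droplet genes, 28 were tested. In SN 6, 4, 4 and 4 were higher and 1, 6, 7 and 6 lower at 1, 4, 7 and 14 d. The higher counts were close to those of all probes (18.6, 15.9, 18.1 and 14.3%), and the lower ones were above them from 4 d on (3.43, 6.78, 6.81 and 5.46%). Mgll, the monoglyceride lipase, and Dgat2, which makes triglyceride, fell from 4 d on, with changes of −1.92 to −1.72 and −2.20 to −1.30. Acsl6, an acyl-CoA synthetase, was called lower on 2 days. Slc27a2, a fatty acid transporter, rose by 2.01 to 2.62 on all 4 days. Fabp7, the brain fatty acid binding protein, was not well above background on any SN array of 0 d or 14 d, and rose at least 1.18-, 4.45- and 2.15-fold at 1, 4 and 7 d. Fabp7 is also in the satellite glia list. The endothelial lipase Lipg passed the test on all 4 days but was well above background on 0 of 3 arrays at 0 d and on 2 of 3 after 1, 4 and 14 d. Its increase was at least 1.15-fold after 7 d, and no fold can be given for the other days. In DRG 1, 2, 2 and 3 of the 28 were higher, near or below the 7.44, 6.04, 6.58 and 13% of all probes, and 0 lower. There Slc27a2, well above background on 1 of 3 arrays at 0 d, was called higher on all 4 days. Cidec, which is also an adipocyte marker, rose by 2.33, 2.28 and 1.70 at 4, 7 and 14 d.

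The cholesterol synthesis genes went the other way from Abca1 in SN. Of 27 genes, all tested, 0 were called higher on any day, and 3, 21, 21 and 22 were lower at 1, 4, 7 and 14 d (all probes 3.43, 6.78, 6.81 and 5.46%), with medians of −0.715, −1.84, −1.96 and −1.65. Hmgcs1, Lss and Tm7sf2 fell on all 4 days, by up to 2.80, 2.52 and 2.99. In DRG 0 of the 27 were called in limma in either direction on any day, with medians between −0.07 and 0.12. At an unadjusted p under 0.05 without a fold limit 6, 3, 1 and 4 were higher and 0, 8, 6 and 5 lower. The share of all probes at that threshold was not counted. Schwann cell markers, 7 in all, had 2, 4, 4 and 3 lower in SN over these days, and their part was not tested.

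**Figure D4:**
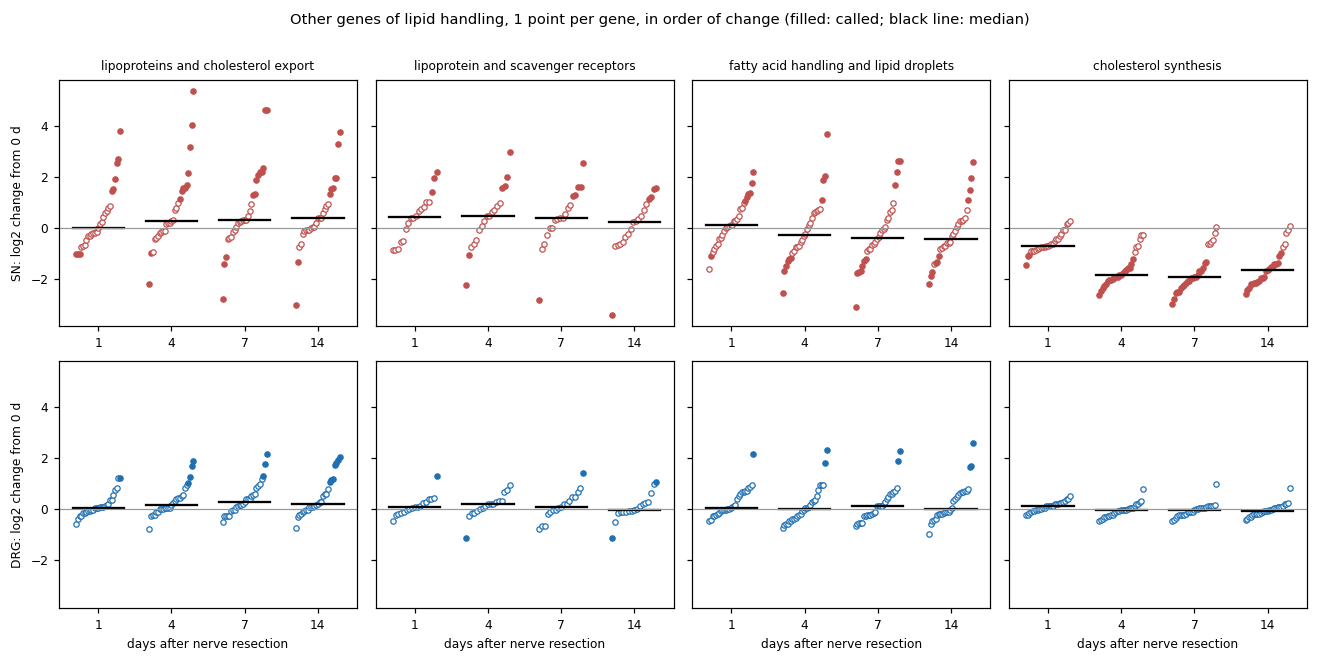
Log2 change from 0 d (y axis) of each tested gene of the 4 other lists of lipid handling, in columns, at 1, 4, 7 and 14 d in SN (upper row) and DRG (lower row), in order of change within a day, with filled points for called changes and black lines for medians. In the cholesterol synthesis panel of SN 21 of 27 genes are filled at 4 d, all below 0, and in that of DRG none is.

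The genes whose signal ran most like that of a member were found over the 15 SN arrays among 15536 named genes, as a description only, since arrays of a day share their time after injury. Nearest to Abca1 were Apoc1, Blnk and Rfc3 (Pearson r = 0.989, 0.989 and 0.987), to Abcg1 Edem2, Copg1 and Ifi30, to Olr1 Lrrtm2, Spred1 and Spred3, and to Msr1 Hmga1, Pgap6 and Uck2. Among the nearest to Lpl were Satb1 and Lin7a, and nearest to Cd36 were Ryk, Ppl and Idh3a, and to Fabp4 Dmrt2, Cyp4b1 and Slc7a10. For Apoe they were Lzts1, Ms4a14 and Prdm1, for Apod Eif3f, Foxs1 and Thbs4, and for Fabp5 Usp14, Pgam1 and Tpmt. Among the 10 genes, the pairs with the highest r over the SN arrays were Lpl and Cd36 (0.919), Olr1 and Msr1 (0.914), Apoe and Apod (0.91) and Abca1 and Abcg1 (0.896). The lowest were Apoe and Lpl (−0.866) and Lpl and Abca1 (−0.842). Over the DRG arrays the highest pairs had 0.366, 0.431, −0.478 and −0.755. Pairs picked for high values in SN tend to be lower elsewhere, and Olr1 was dim in DRG.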

How the data were processed

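Total RNA was labelled with Cy3 and hybridized to 1-colour Agilent whole-genome rat arrays, 15 of SN and 15 of DRG. The deposited intensity of each spot was read by the authors with Agilent Feature Extraction (version 10.5.1.1, per the file headers), with the background subtracted within the array and no normalization between arrays. The deposited log2 values of the authors' matrix have the same distribution on all 30 arrays and served as an alternative. Sources differ on RNA extraction (Trizol in the methods, mirVana kit in the labels).

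Spots marked non-uniform or as outliers were left out, log2 intensity was averaged over the spots of a probe, and each array's 75th percentile over non-control probes was subtracted. A probe was tested with limma (version 3.58.1, R 4.3.3), if some day had it well above background on each of its 3 arrays: 35157 probes in SN and 34968 in DRG, each tissue in 1 fit of 15 arrays, and 33796 in a fit of 30 arrays for the tissues. A call needed a change of more than 2-fold with an adjusted p (Benjamini-Hochberg) below 0.05. The 3 arrays of a group limit the precision. The fit was tested on simulated data.

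Named genes were all members, the 3 genes of each list with the highest and the lowest mean change among those called on at least 2 days, and the 3 genes most like each member, of which 1 is not reported here. For a gene with several probes the brightest was used. Symbols were updated through RefSeq accessions. Members and lists were chosen with earlier results of these data known. Tried as alternatives were 4 other normalizations, 2 other filters, other sets of arrays, the methods' t-test, slide, scan and replicate number as blocks, the other probe of Lpl and leaving out each array.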

Additional observations from a re-analysis of the deposited data

Results flagged for a closer look

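The change from 0 d differed between nerve and ganglia for 6 of the 10 genes by limma's test of the interaction, with an adjusted p under 0.05 and a difference over 2-fold. At 1 d the change in SN minus that in DRG was 1.06 for Abca1, 6.06 for Olr1 and 3.23 for Msr1 on the log2 scale. At 4 d it was 1.46 for Abca1, 1.38 for Abcg1, 5.73 for Olr1, 2.26 for Msr1, −1.13 for Lpl and −1.03 for Cd36. At 7 d it was 1.05 for Abca1, 1.08 for Abcg1, 5.34 for Olr1, 1.39 for Msr1 and −1.38 for Cd36. At 14 d it was 4.22 for Olr1 and −1.36 for Cd36. The values of Olr1 rest on 0 d arrays on which its probe was not well above background and give no measured size. With slide as a fixed block, an alternative chosen after the data were seen, the differences of Lpl after 4 d (−0.92), Cd36 after 4 d (−0.66) and Msr1 after 7 d (0.87) were not called, which left 5 of the 6 genes. No gene was tested for a single array far from the others, since each group had 3.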

How the results depend on the processing

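Over 2524 values of the 10 genes under other settings, 2444 kept their side of the threshold and 46 lost and 34 gained a call. Leaving out 1 array at a time, 3547 of 3600 kept it, with 37 lost and 16 gained. Part of this agreement was fixed in advance. The setting with the other probe of Lpl left the values of the other genes as they were. An array left out from outside a comparison does not enter its change and can only move its p-value. The shares kept are therefore no measure of how stable the calls are. In both sets 0 values with a call reversed direction. Direction was not compared where neither value was called, and some of those changed sign. The uncalled Apoe change in SN after 1 d, for example, ran from −0.338 to 0.078. Of the 5 calls in DRG against 0 d, 2 were left with normexp and quantile normalization, 3 in fits of only the arrays compared, 3 with the methods' t-test unadjusted and 3 after Benjamini-Hochberg adjustment. Of the 5 calls in SN between neighbouring days 3 were left with the t-test after adjustment. The Fabp4 falls in SN after 4, 7 and 14 d were lost with the methods' t-test, also unadjusted. The t-test with the same fold limit added no call. Without 1 array the calls ranged from 16 (without SN 0 d array 1) to 22 against 21 in SN, 3 (without DRG 0 d array 1) to 7 against 5 in DRG, 4 to 5 and 1 to 2 between neighbouring days in SN and DRG, 14 to 18 against 16 for the interaction and 6 to 9 against 6 between the tissues at 0 d.

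With the replicate number as a block (replicate block) the calls were 21, 5, 5, 1, 16 and 6, as without it. Same-numbered arrays did not deviate together on average (mean r −0.021 in SN, −0.054 in DRG and 0.023 between the tissues). These means cannot show whether same-numbered arrays share rats, which the labels do not say.

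Over all probes, calls fell with normexp and quantile normalization from 31436 to 10907 in SN and from 12079 to 1922 in DRG against 0 d, from 4491 to 1496 and from 1590 to 422 between neighbouring days, from 19402 to 9357 for the interaction and from 11975 to 7395 between tissues. With both groups required above background they were 19989 in SN and 3782 in DRG, and with the t-test after adjustment 2810 in SN between neighbouring days and 6090 and 293 in DRG. The unadjusted t-test gave 2474 in DRG between neighbouring days. Signal close to background limits Olr1 in DRG and at 0 d.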
